A study of Mus musculus with 4 samples.

Results

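The genes described here are the tandem gene families of the rodent placenta that lie on autosomes: the prolactin-like hormones (Prl), the placental cathepsins (Cts) with the trophoblast-specific proteins Tpbpa and Tpbpb that lie among them, and the pregnancy-specific glycoproteins (Psg). They were chosen by gene symbol alone, as all rows off the X chromosome named Prl, Psg or Cts followed by a digit, Ctsj, Ctsm, Ctsq, Ctsr, Ctsll3, Tpbpa or Tpbpb. The rule found 51 of 22691 listed genes, namely 26 Prl genes, 12 Cts and Tpbp genes and 13 Psg genes, and no measured value entered it, but the families themselves were picked with earlier results of these data known. The mark measured was trimethylation of histone H3 at lysine 27 (H3K27me3), by chromatin immunoprecipitation and sequencing (ChIP-seq) with the monoclonal antibody CMA323. The cells were mouse embryonic fibroblasts from female C57BL6/J fetuses at embryonic day 13.5, either Smchd1 +/+ (WT) or Smchd1 MD1/MD1 (MD1), the latter described as lacking SmcHD1. Each genotype had 1 ChIP library and 1 input library made without antibody, so there was no replicate error, and no test and no p-value between the genotypes is given. The series asks how SmcHD1, a chromatin protein of the SMC family concentrated on the inactive X chromosome, sets up epigenetic states, and these autosomal clusters are compared within that design.

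H3K27me3 is laid down by Polycomb repressive complex 2 and marks genes held silent. The Prl, Cts and Psg families arose by repeated tandem duplication in rodents, are made mainly by trophoblast cells of the placenta and act as hormones, proteases and immune-modulating glycoproteins of pregnancy. Fibroblasts are not a site of placental hormone production, except that proliferins, the Prl2c genes, are known from growth-stimulated mouse fibroblast lines.

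The deposited values are log2 enrichments, 1 per gene and genotype, and all differences are given as MD1 minus WT. A difference of 1 thus means a 2-fold higher and one of -1 a 2-fold lower enrichment in MD1. An enrichment is a ratio and does not grow with gene length. A value averages all cells and both alleles, so more cells with the mark and more mark per cell cannot be told apart. Positions are on the build mm9. Both values existed for 48 members. Prl2c2 had none, and Psg21 and Psg23 had one in WT alone, which was so for 64 autosomal genes in all. Over 19836 autosomal genes the spread was wider in MD1 (slope of MD1 on WT 1.25), and the autosomal median difference was -0.27. A level-matched difference was therefore also computed, by subtracting the median difference of 500 autosomal genes that had the most similar mean enrichment and fell in the same quartile of gene length. The SD among those 500 genes, called the matched SD, stands in place of a replicate error and is not one. At the median, fibroblast markers carried little of the mark, -2.84 in WT and -3.99 in MD1 over 17 genes (percentiles 7.39 and 10.5 of autosomal genes). Some of the 17 stood well above that median. Lum was at percentile 49.3 in WT and 63.0 in MD1, Fap at 48.9 in both, Dcn at 39.2 and 49.0 and Thy1 at 32.8 and 45.9. The lists of blood markers (Ptprc, Csf1r and Cd68 with values) and endothelial markers (Pecam1, Cdh5, Kdr and Tek) had medians of -0.10 and -0.06 in WT, and of -0.25 and 0.08 in MD1. The blood markers were not alike. Cd68 stood at -2.42 and -3.99 (percentiles 17.1 and 10.6), Ptprc at -0.07 and -0.25 and Csf1r at -0.10 and 0.24.

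The 3 families differed in how the MD1 cells compared with the WT cells. At the Cts and Tpbp genes the mark was higher in MD1 at 11 of 12 genes, at the Psg genes at 8 of 11, and at the Prl genes at 9 of 25, whereas 31.0% of all autosomal genes were higher by any amount. The median difference was 0.81 for Cts and Tpbp (quartiles 0.47 and 1.30), 0.42 for Psg (0.02 and 0.59) and -0.19 for Prl (-0.44 and 0.26). A 2-fold higher enrichment was reached by 6 members, 5 of them cathepsins (Ctsr, Cts6, Cts8, Cts8-ps and Cts3) and 1 a Psg gene (Psg29), against 1.61% of autosomal genes. None of the 48 members was at least 2-fold lower, against 20.4% of autosomal genes. With the level-matched difference the counts were also 6 and 0, against 3.17% and 3.42%. When 1 was added to each linear ratio before the log2, which shrinks differences between low levels, none was 2-fold higher. Neighbours within a family are not independent, and no difference between the families could be tested.

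**Figure D1:**
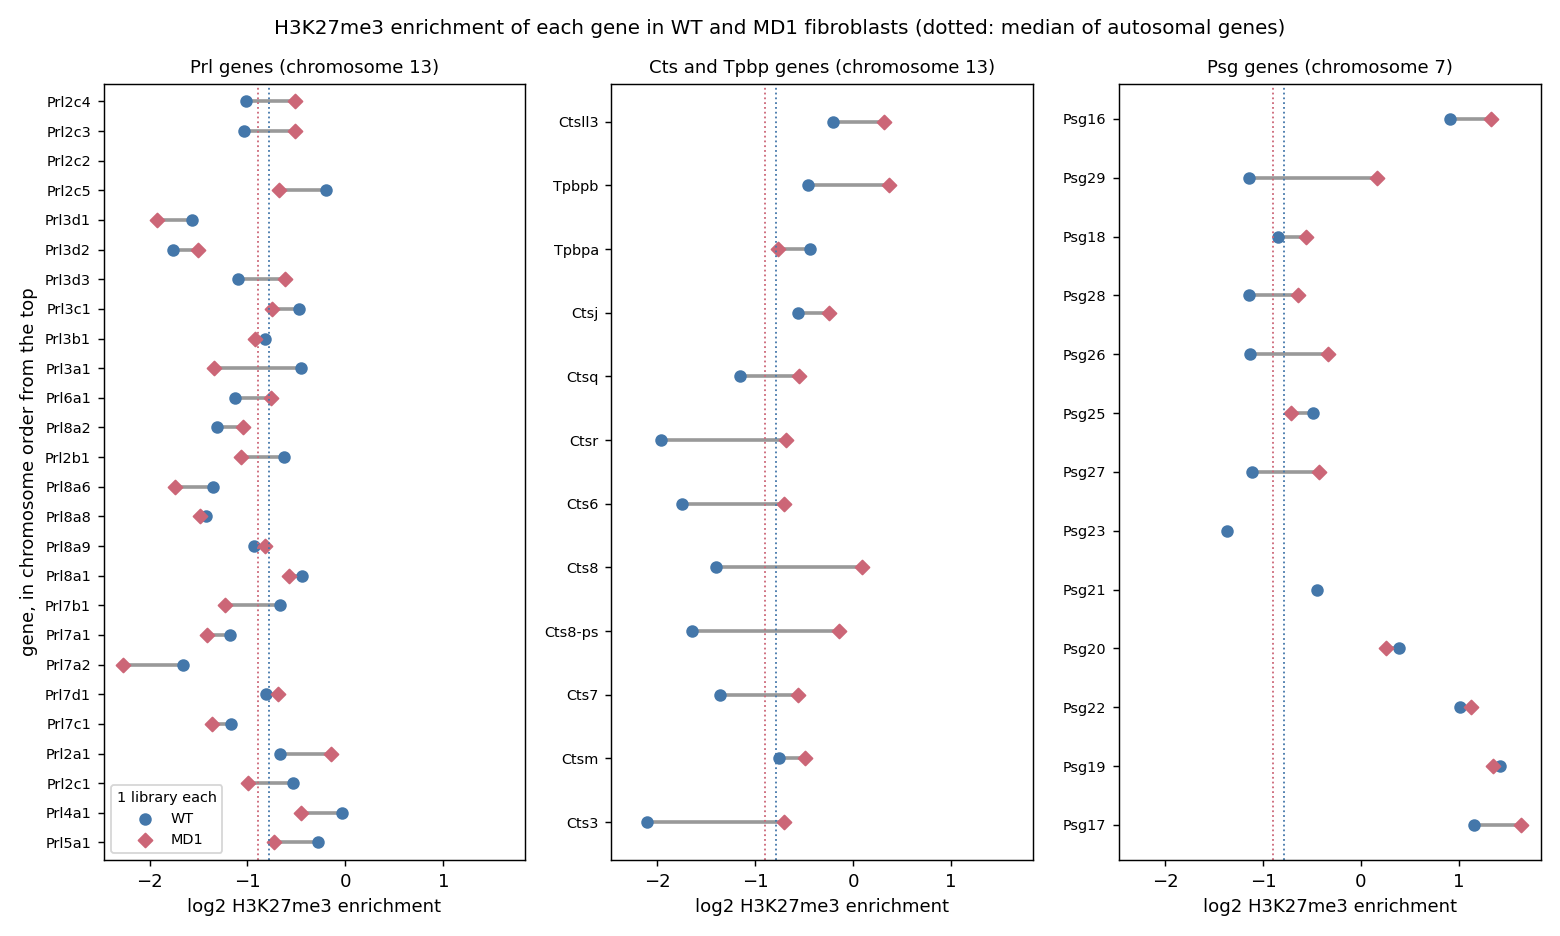
Log2 H3K27me3 enrichment (x axis) of each Prl, Cts, Tpbp and Psg gene in chromosome order (y axis), with WT as circles, MD1 as diamonds and dotted lines at the autosomal medians; each point is 1 library pair without replicate error. From Ctsr to Cts8-ps the WT points lie at or left of -1.40 and the MD1 points between -0.70 and 0.09, while no Prl pair lies 1 or more apart.

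**Figure D2:**
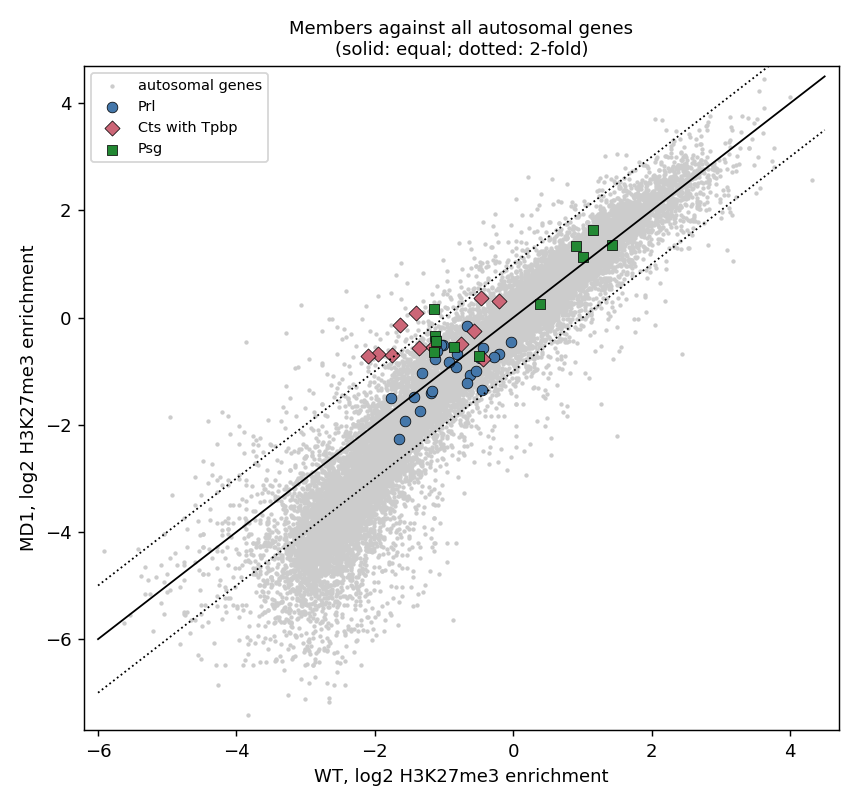
MD1 (y axis) against WT (x axis) log2 H3K27me3 enrichment for autosomal genes in grey and the Prl, Cts with Tpbp and Psg genes in colour, with a solid line at equality and dotted lines at 2-fold. The 5 cathepsins and Psg29 lie above the upper dotted line, and no coloured point lies below the lower one.

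The placental cathepsins are cysteine proteases related to cathepsin L, and 10 Cts genes with Tpbpa and Tpbpb occupy 771.9 kb of chromosome 13 (60899611 to 61671487). In WT the cluster ran from -2.10 at Cts3 to -0.21 at Ctsll3, and in MD1 from -0.77 at Tpbpa to 0.37 at Tpbpb. The median was -1.26 in WT and -0.52 in MD1, with median percentiles of 42.6 and 56.2 among all autosomal genes. The SD over the 12 genes was 0.65 in WT and 0.41 in MD1. The 10 Cts genes were all higher in MD1, with differences from 0.27 at Ctsm to 1.498 at Cts8 and 1.4998 at Cts8-ps.

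Cts8 (13, 61348108 to 61356709), a protease of trophoblast giant cells, went from -1.40 in WT to 0.09 in MD1, a 2.82-fold higher enrichment. It went from percentile 40.2 to percentile 67.6 of autosomal genes. Its level-matched difference was 1.60, against a matched SD of 0.48. Cts8-ps (13, 61382741 to 61390211), the neighbouring pseudogene, went from -1.64 to -0.14, with a level-matched difference of 1.61 and a matched SD of 0.48. Cts8 and its pseudogene thus differed alike, and how reads that map to both were counted is not given in the sources used here. Cts7 (13, 61453822 to 61459531), also known from giant cells, went from -1.36 to -0.57, short of 2-fold.

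Cts3 (13, 61665990 to 61671487), the last gene of the cluster, had the lowest WT value of all members, -2.10, and stood at -0.71 in MD1, a difference of 1.39. Ctsr (13, 61260576 to 61265549) went from -1.96 to -0.69, a difference of 1.27. Both are short genes, with matched SDs of 0.96, and in their length quartile 5.4% of autosomal genes were at least 2-fold higher, or 9.62% by the level-matched difference. Cts6 (13, 61296508 to 61304753) went from -1.75 to -0.70, a difference of 1.05 with a matched SD of 0.50. In its length quartile, which also holds Cts8 and Cts8-ps, 0.764% of autosomal genes were at least 2-fold higher, or 2.29% by the level-matched difference.

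The genes at the proximal end of the locus differed less. Ctsll3 went from -0.21 to 0.32 and Ctsj, a protease of the labyrinth layer, from -0.57 to -0.25. Ctsq, which marks the giant cells lining maternal blood sinusoids in the labyrinth, went from -1.15 to -0.56. The 5 genes from Ctsll3 to Ctsq had a median difference of 0.52, and the 7 from Ctsr to Cts3 one of 1.27, a split drawn after the values were seen. Ctsm, between Cts7 and Cts3, went from -0.76 to -0.49. Tpbpa, the marker of spongiotrophoblast and its precursors, was the exception with a lower value in MD1, from -0.44 to -0.77, while its neighbour Tpbpb went from -0.46 to 0.37. With matched SDs of 0.81 and 0.70 neither stood 2 SDs from its matched genes.

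More than 2 matched SDs from their matched genes lay 4 members, Cts6, Cts8, Cts8-ps and Psg29, all higher in MD1, against 2.77% of autosomal genes that lay so far above. In lowest terms the deposited values of the members are ratios of whole numbers, such as 11 to 30 in WT and 12 to 11 in MD1 for Cts8, 24 to 83 and 22 to 35 for Cts6, but 1 to 4 and 40 to 63 for Ctsr. The numbers of reads behind them are unknown. Among members whose ratios in lowest terms have denominators of at least 20 in both genotypes, there were 6 Cts and Tpbp genes, 2 of them at least 2-fold higher.

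The promoters of the cluster are shown because 11 of its 12 genes differed in the same direction. A RefSeq promoter of 300 bases (250 before to 50 after the gene start, build GRCm38.p6) was found for 11 of the 12 genes, the exception being Cts8-ps. The letters ATTTAAA, searched on both strands after these promoters had been read, stood in 9 of the 11, between 30 and 49 bases before the start, against 5.67% of 31628 autosomal promoters. The related TATAAA stood in 4, among them Ctsll3 and Ctsq, which lack ATTTAAA, so that all 11 held one or the other, against 17.9% of autosomal promoters. In the 4 promoters printed here capitals mark ATTTAAA; they are those of Cts8 (chr13:61255299-61255598, minus strand), Ctsr (chr13:61164139-61164438, minus), Cts3 (chr13:61570078-61570377, minus) and Tpbpa (chr13:60941887-60942186, minus).
Cts8: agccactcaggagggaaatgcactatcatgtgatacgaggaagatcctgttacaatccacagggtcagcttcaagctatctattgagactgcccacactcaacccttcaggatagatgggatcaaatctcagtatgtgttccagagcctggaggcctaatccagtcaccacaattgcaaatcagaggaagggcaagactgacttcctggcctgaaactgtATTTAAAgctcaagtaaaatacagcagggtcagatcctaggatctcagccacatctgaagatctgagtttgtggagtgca
Ctsr: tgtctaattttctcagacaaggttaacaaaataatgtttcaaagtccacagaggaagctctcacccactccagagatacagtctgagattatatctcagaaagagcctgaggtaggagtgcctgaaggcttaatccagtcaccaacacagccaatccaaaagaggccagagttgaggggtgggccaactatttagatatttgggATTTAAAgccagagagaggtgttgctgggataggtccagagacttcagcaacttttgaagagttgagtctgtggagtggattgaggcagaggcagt
Cts3: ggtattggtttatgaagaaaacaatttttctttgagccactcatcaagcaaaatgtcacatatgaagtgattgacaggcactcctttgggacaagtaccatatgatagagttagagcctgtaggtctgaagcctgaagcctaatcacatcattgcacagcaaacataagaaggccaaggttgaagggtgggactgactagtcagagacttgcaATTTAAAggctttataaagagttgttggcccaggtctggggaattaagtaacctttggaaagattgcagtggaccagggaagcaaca
Tpbpa: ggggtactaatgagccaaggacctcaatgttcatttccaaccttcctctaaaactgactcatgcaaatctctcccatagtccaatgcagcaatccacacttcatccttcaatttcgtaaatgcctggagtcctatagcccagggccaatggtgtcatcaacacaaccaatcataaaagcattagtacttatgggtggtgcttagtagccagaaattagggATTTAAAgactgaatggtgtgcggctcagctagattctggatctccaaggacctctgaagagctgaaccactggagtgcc
Tpbpa holds ATTTAAA at the same place as Cts8, 30 bases before the start. Promoters within the cluster were 57.1% identical at the median of 55 pairs, with 95.7% between Tpbpa and Tpbpb and 89.8% between Ctsm and Cts3. Ctsm and Cts3 had differences in the mark of 0.27 and 1.39, with matched SDs of 0.80 and 0.96. Whether promoter sequence bears on the mark was not tested.

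Other genes inside the cathepsin locus were higher in MD1 too. Ctla2a and Ctla2b, which encode proteins like the inhibitory propeptide of cathepsins, went from -1.90 to -0.66 and from -1.69 to -1.20, and 4930486L24Rik from -0.57 to -0.23. All 15 genes between Ctsll3 and Cts3 except Tpbpa were thus higher in MD1, 6 of them at least 2-fold. Outside the locus but within 1 Mb, 4 of 9 genes were higher, none of them 2-fold, and 4 were at least 2-fold lower. By the level-matched difference 5 of these 9 were higher and none was 2-fold higher or lower, against 14 higher and 6 at least 2-fold higher of the 15 inside. On the proximal side BC051665, next to Ctsll3, went from 0.07 to 0.68, and beyond it Dapk1, a kinase gene, went from -0.20 to -0.43. On the distal side the first gene, BC052688, had a value in MD1 alone (-1.03), and the zinc finger gene Zfp808 beyond it went from -1.90 to -3.24.

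**Figure D3:**
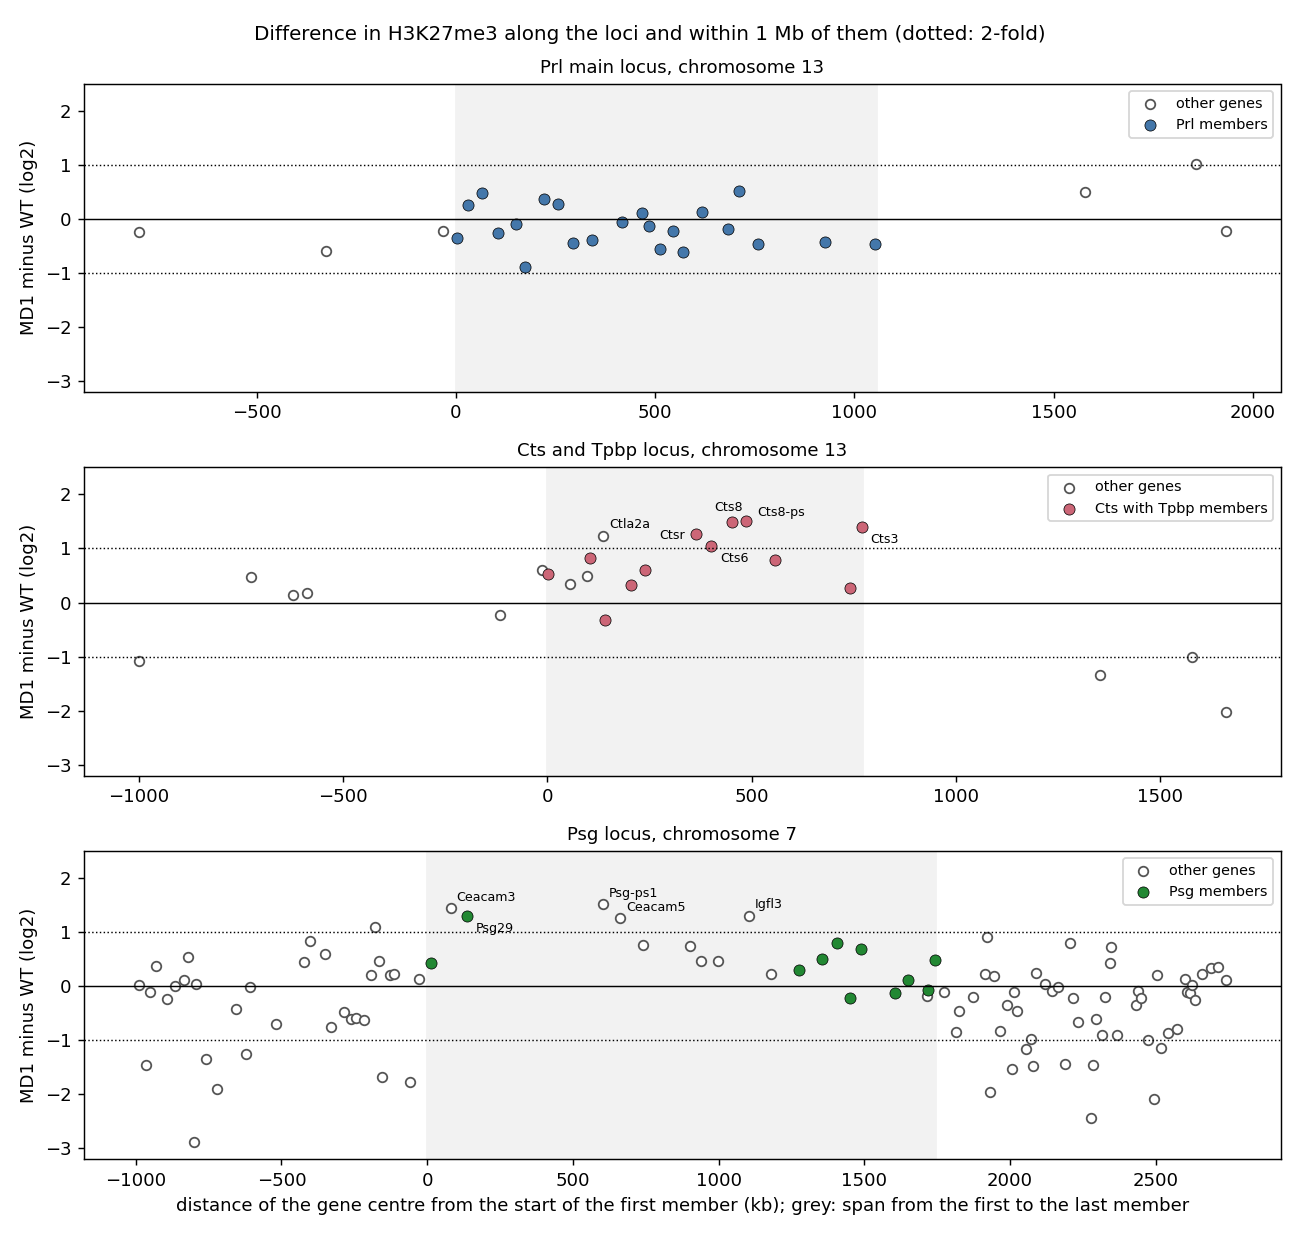
MD1 minus WT difference in log2 H3K27me3 enrichment (y axis) against the distance of each gene's centre from the first member (x axis, kb) for the main Prl locus, the Cts and Tpbp locus and the Psg locus, with members filled and other genes open, the span of the members in grey and dotted lines at 2-fold. Inside the Cts and Psg spans 14 of 15 and 17 of 21 genes lie above 0, inside the main Prl span 7 of 22, against 31.0% of all autosomal genes.

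The Psg genes encode secreted glycoproteins of the carcinoembryonic antigen family, and the 13 genes lie with their relatives, the Ceacam genes, over 1747.6 kb of chromosome 7 (17659389 to 19406940). In WT the genes at the ends of the locus lay above 0 and those between them below 0. Psg16, at the proximal end, stood at 0.90 in WT and 1.33 in MD1 (percentiles 83.0 and 88.7). At the distal end Psg22, a giant cell product, stood at 1.01 and 1.12, Psg19 at 1.42 and 1.35, and Psg17, whose protein binds the tetraspanin CD9, at 1.15 and 1.64. Psg20 was lower at 0.38 and 0.25, in MD1 close to Psg29 (0.16), so that the sets seen in WT did not separate in MD1. The 4 genes from Psg20 to Psg17 had a median difference of 0.02. The interval of Psg19 overlaps Sycp1-ps1, which stood at 1.38 and 1.19, so both can share reads.

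Between these ends MD1 exceeded WT at 5 of 6 genes with both values. Psg29 (7, 17788826 to 17801105) had the largest difference of the family, from -1.14 in WT to 0.16 in MD1, or 2.46-fold. Its level-matched difference was 1.40 with a matched SD of 0.47, and its percentile went from 44.6 to 69.1. Psg26 went from -1.14 to -0.34, Psg27 from -1.12 to -0.43, Psg28 from -1.14 to -0.65 and Psg18 from -0.85 to -0.56. Psg25, in the middle of this run, had the opposite sign, from -0.49 to -0.72. The 5 genes from Psg18 to Psg27 had a median of -1.12 in WT and -0.56 in MD1, percentiles 45.0 and 55.7.

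Psg23 and Psg21 lie between Psg27 and Psg20 and had WT values of -1.37 and -0.45, with ratios of 3 to 8 and 22 to 31 in lowest terms. Their MD1 values are missing, so no difference is given. Their promoters are 96.4% identical, and the reason for the missing values was not tested.

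Of the other genes inside the Psg locus 9 of 10 were higher in MD1. One of them, Psg-ps1, is by its name a Psg pseudogene that the symbol rule did not take, and it went from -1.92 to -0.40. Of the 9 genes not named Psg, 8 were higher and 3 at least 2-fold, which were Ceacam3, from -0.76 to 0.67, Ceacam5, from -1.69 to -0.44, and Igfl3, from -1.20 to 0.10. The 6 Ceacam genes inside the locus had a median of -1.11 in WT and -0.45 in MD1. Within 1 Mb outside it Ceacam15 (1.62 in WT and 2.46 in MD1) and Ceacam9 (1.61 and 2.20) were high in both genotypes. Sycp1-ps1 was the gene inside the locus and not named Psg with a lower MD1 value. Within 1 Mb outside the locus 29 of 82 genes were higher in MD1, 1 of them at least 2-fold, and 16 were at least 2-fold lower, a share near the 20.4% of autosomal genes. By the level-matched difference 44 of these 82 were higher, 2 of them at least 2-fold, and 1 was at least 2-fold lower, against 17, 5 and 0 of the 21 genes inside. Over all 15 Ceacam genes, relatives of Psg that encode cell adhesion proteins, the median difference was 0.53 and 2 were at least 2-fold higher.

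The promoters of Psg29, with the largest difference, and of Psg17, with the highest MD1 level of all members, are set side by side because Polycomb targets in mammals are known to be rich in CpG. Capitals mark CpG dinucleotides. That of Psg29 (chr7:17203227-17203526, plus strand) had none and that of Psg17 (chr7:18821542-18821841, minus strand) had 3.
Psg29: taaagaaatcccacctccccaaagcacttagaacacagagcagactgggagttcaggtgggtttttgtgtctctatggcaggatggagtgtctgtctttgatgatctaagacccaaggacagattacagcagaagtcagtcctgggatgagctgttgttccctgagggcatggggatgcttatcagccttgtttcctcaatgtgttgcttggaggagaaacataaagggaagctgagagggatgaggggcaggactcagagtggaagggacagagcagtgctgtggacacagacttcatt
Psg17: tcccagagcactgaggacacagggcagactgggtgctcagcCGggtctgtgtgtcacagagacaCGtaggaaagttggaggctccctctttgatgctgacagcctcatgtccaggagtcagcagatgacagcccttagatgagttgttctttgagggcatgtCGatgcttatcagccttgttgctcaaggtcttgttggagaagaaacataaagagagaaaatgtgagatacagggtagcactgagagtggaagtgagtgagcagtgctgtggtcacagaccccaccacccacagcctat
Both were poor in CpG, as were the promoters of all families. The 46 RefSeq promoters of 42 members held 0 to 5 CpG each, with a median of 2, whereas the median autosomal promoter held 7 (quartiles 3 and 21) and 43.5% of autosomal promoters held 5 or fewer. Whether the CpG count of members goes with their level of the mark was not tested.

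The Prl genes, hormones and cytokines of the prolactin and growth hormone family, were close to the autosomal median in both genotypes. Their median was -0.93 in WT and -0.92 in MD1 (percentiles 47.7 and 49.6), their WT values ran from -1.76 to -0.03 and their MD1 values from -2.27 to -0.15. No Prl gene differed by 2-fold in either direction. The difference of each gene ran from -0.89 at Prl3a1, which went from -0.45 to -1.35, to 0.52 at Prl2c3. Centred on the autosomal median the Prl median difference turned from -0.19 to 0.082, and with the level-matched difference it was -0.026, so no direction is given for the family.

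The placental lactogens, which act on the prolactin receptor of the mother, are Prl3d1, Prl3d2, Prl3d3 (placental lactogen I) and Prl3b1 (placental lactogen II). Prl3d1 (13, 27186058 to 27192129) stood at -1.57 in WT and -1.92 in MD1, Prl3d2 at -1.76 and -1.50, and Prl3d3 at -1.10 and -0.62. Their differences of -0.35, 0.26 and 0.48 lay within the matched SDs of 0.97, 0.95 and 0.83. Prl3b1 stood at -0.82 and -0.92. The promoter of Prl3d1 (chr13:27093939-27094238, plus strand) is shown for the hormone genes, with TGACTCA, the letters bound by AP-1 factors, in capitals.
Prl3d1: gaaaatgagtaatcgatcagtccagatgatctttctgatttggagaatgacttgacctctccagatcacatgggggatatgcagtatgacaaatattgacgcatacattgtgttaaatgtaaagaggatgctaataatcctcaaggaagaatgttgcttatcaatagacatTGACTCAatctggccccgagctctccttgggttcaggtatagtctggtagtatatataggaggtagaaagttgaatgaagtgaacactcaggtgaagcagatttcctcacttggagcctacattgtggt
TGACTCA was in 6 of the 24 Prl promoters, which are of 21 genes, all 3 of Prl3d1, Prl3d2 and Prl3d3 included, against 5.23% of autosomal promoters. It was also in 3 of 11 Psg promoters, with repeated entries of Psg18 among them, and in 2 of 11 Cts and Tpbp promoters. AGATAA, letters read by GATA factors, was in 12 of the 24 Prl promoters against 11.1%. These 12 are not independent, since they hold repeated entries of Prl6a1 and of Prl7d1. The promoters of Prl2c3, Prl2c5 and Prl7d1, which all hold AGATAA, were also 93.4% to 95.3% identical. G and C made up 40.8% of the bases in the median Prl promoter, against 53.0% in the median autosomal one. ATTTAAA was in none of the Prl promoters. Promoters of Prl3d2 and Prl3d3 were 97.0% identical and those of Prl3d1 and Prl3d2 87.4%.

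The proliferin genes Prl2c2 to Prl2c5 lie apart from the other Prl genes, near 13 Mb of chromosome 13, whereas Prl2c1 lies among those others. Prl2c3 went from -1.04 to -0.52 and Prl2c4 from -1.01 to -0.52. Their intervals overlap almost entirely, so they are 1 measurement, although the counts of Prl genes given here hold both. Prl2c5 went the opposite way to both, from -0.20 to -0.68. The 17 genes flanking this locus within 1 Mb had a median of -2.10 in WT and of -3.15 in MD1. Of these, 8 were at least 2-fold lower in MD1, but 1 by the level-matched difference, whose median was -0.18.

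In the main Prl locus, 22 genes over 1057.4 kb (13, 27186058 to 28243464) with no other listed gene among them, 7 genes were higher and 15 lower in MD1, with a median of -0.88 in WT and -1.02 in MD1. The share higher was near the 31.0% of autosomal genes. By the level-matched difference 12 of all 25 Prl genes were higher, against 49.6% of autosomal genes. Prl2a1 had the largest positive difference of the main locus, from -0.67 to -0.15, and Prl6a1 went from -1.13 to -0.76. Prl8a2, the decidual prolactin-related protein gene, went from -1.31 to -1.04. Prl7d1, encoding the antiangiogenic proliferin-related protein, stood at -0.81 and -0.69, and Prl8a9 at -0.93 and -0.82.

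The other genes of the main locus were lower in MD1 by less than 2-fold. Prl7a2 had the lowest MD1 value of all members, -2.27, against -1.66 in WT, and Prl7b1, a gene of invasive trophoblast, went from -0.67 to -1.23. Prl4a1, whose product acts on natural killer cells, had the highest WT value of the family, -0.03, and stood at -0.46 in MD1. Prl7a1 went from -1.18 to -1.41, Prl7c1 from -1.17 to -1.36, Prl2b1 from -0.63 to -1.07, Prl2c1 from -0.53 to -0.997 and Prl5a1 from -0.28 to -0.73. The 5 genes named Prl8 had a median of -1.31 in WT and -1.04 in MD1, with Prl8a6 at -1.35 and -1.74, Prl8a8 at -1.43 and -1.49 and Prl8a1 at -0.44 and -0.58. Prl3c1 stood at -0.48 and -0.75. Of these genes, Prl3a1 alone, with a level-matched difference of -0.79 and a matched SD of 0.49, was more than 1.5-fold lower than its matched genes.

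Related genes outside the clusters were compared as lists. The 14 other cathepsins, lysosomal or immune proteases scattered over the genome, had a median of -1.12 in WT and of -1.46 in MD1. Their median difference was -0.27, the autosomal value, and 2 were at least 2-fold lower, Ctsb (-2.72 to -4.05) and Ctsl (-3.18 to -4.28), and none was higher. By the level-matched difference none of the 14 was 2-fold lower. Of 12 genes of prolactin signalling, 1 was at least 2-fold higher, Cish, a feedback inhibitor (-0.48 to 0.53), against 1.61% of autosomal genes. Another 3 were at least 2-fold lower, Socs1, Socs3 and Ptpn11, a share near the 20.4% of autosomal genes. By the level-matched difference Socs1 remained lower by 2-fold (-1.91, matched SD 1.07), while Socs3 and Ptpn11 did not. That of Cish was 1.06 with a matched SD of 0.70. Neither Cish nor Socs1 lay 2 matched SDs from its matched genes. Prl itself, the pituitary hormone gene beside Prl3d1, stood at -0.33 and -0.56, and the receptor gene Prlr at 0.14 and 0.12. Trophoblast regulators and markers of other families carried more of the mark than each of the 3 families at the median, 1.26 in WT and 0.96 in MD1 over 21 genes, with a median difference of -0.0020 and Ctla2a, inside the cathepsin locus, as the gene past 2-fold. Hand1, Cdx2, Tfap2c and Ascl2, transcription factors of the trophoblast lineage, stood at 2.79, 2.42, 2.70 and 1.86 in WT and 2.87, 2.40, 2.76 and 1.86 in MD1. Some other factors of the list were lower in MD1 by less than 2-fold. Gata3 went from 0.34 to -0.61, Gata2 from 0.28 to -0.31 and Tfap2a from 1.75 to 0.96. Their level-matched differences were -0.87, -0.53 and -0.91, with matched SDs of 0.32, 0.40 and 0.25. Gata3 and Tfap2a thus lay more than 2 matched SDs below their matched genes, and Gata2 did not. Ets2 (-1.73 to -2.62) and Tead4 (-1.37 to -2.30) carried little of the mark. The factors named here were chosen after their values were seen.

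Other tandem families of silent genes served as a yardstick for cluster structure. Olfactory receptor genes (245 with values) had a median difference of -0.13, with 15 at least 2-fold higher and 36 lower. Vomeronasal receptor genes (121) had a median difference of 0.26, with 10 higher and 4 lower, and stood near the cathepsins in WT, at a median of -1.09. Of all autosomal genes 1.61% were at least 2-fold higher and 20.4% lower. By share, both receptor families thus had more genes at least 2-fold higher and fewer lower than all autosomal genes. Serpinb genes (26) had a median difference of -0.11.

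**Figure D4:**
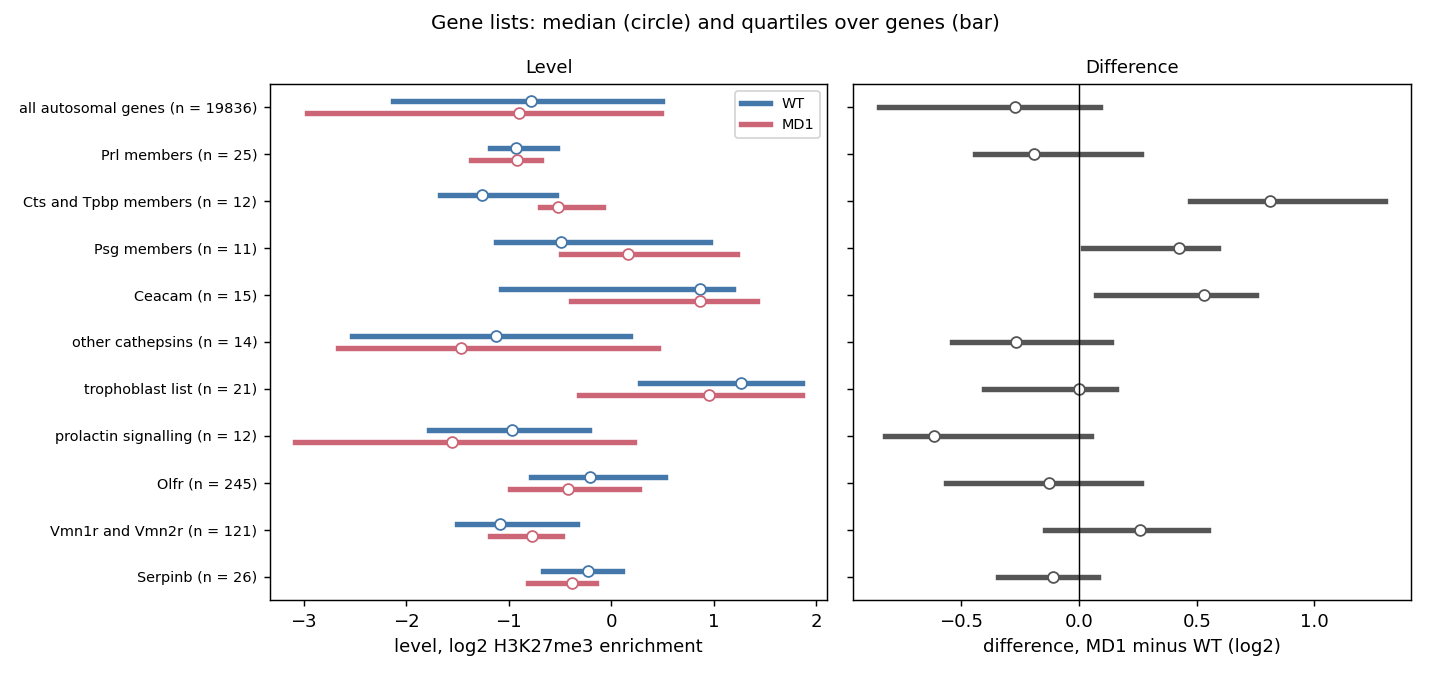
Medians (circles) and quartiles over genes (bars) of the log2 H3K27me3 enrichment in WT and MD1 (left) and of the MD1 minus WT difference (right) for the 3 families, all autosomal genes and the lists compared with them. The Cts and Tpbp median difference of 0.81 is the highest of the 11 groups drawn and the Prl median of -0.19 lies close to the autosomal -0.27.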

How the data were processed

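H3K27me3 ChIP-seq of WT and MD1 fibroblasts is represented by 1 deposited table with a log2 enrichment per gene and genotype. Per the file headers the authors give 1 log2 value for WT and 1 for smchd1MD1, and the submitters' processing notes name mm9. No source used here names the aligner, the counting, the filters or the denominator. At a relative tolerance of 1e-12, 99.98% of WT and 99.95% of MD1 values were, apart from 1 scaling constant per genotype, log2 ratios of whole numbers up to 20000. Such ratios are known in lowest terms only, so the depth is unknown and no interval is given. Table starts count from 0 and are printed from 1.

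Members were read by symbol, and differences, medians, counts past 2-fold, percentiles among autosomal genes and level-matched differences were computed without a filter on low values (Python 3.11.15, pandas 2.3.3, numpy 2.4.6), in code tested on simulated data. Members, lists and tests were chosen with earlier results of these data known. Every member could be named, with fuller values for the up to 4 lowest and 4 highest differences of a cluster, the extremes of level and genes of known role. Promoters are from RefSeq (GRCm38.p6), aligned globally with Biopython 1.88 (match 1, mismatch -1); the first entry of a gene was used for identity.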

Additional observations from a re-analysis of the deposited data

How the results depend on the processing

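No replicates exist, so no value carries a replicate check, and the values of short genes with unknown depth are the least certain. No paired analysis was possible because each genotype has 1 ChIP library. The number at least 2-fold lower was 0 of all members in every setting but the 1.5-fold limit, where it was 2.

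Centred on the autosomal median, the median difference was 0.54 for all members, 1.08 for Cts and Tpbp, 0.70 for Psg and 0.082 for Prl, the last with its sign turned, and 2 Psg genes were at least 2-fold higher. Centred on the same chromosome, a setting added after seeing the data, it was 0.55, 1.13, 0.65 and 0.13, with the Prl sign turned again. With a pseudocount of 1 it was 0.078, 0.29, 0.17 and -0.056, and the number at least 2-fold higher was 0 of all members, of Cts and Tpbp and of Psg. The level-matched median of Prl was -0.026. With denominators of at least 20 the median was 0.11 for all members and 0.70 for Cts and Tpbp, with 3 and 2 genes at least 2-fold higher. Without a set listed as copies (Prl2c2 to Prl2c5, Prl3d1 to Prl3d3, Cts7 and Cts8) the median of all members was 0.12. That set is not one of near-identical promoters, since those of Cts8 and Cts7 were 62.4% identical. Tpbpa, Tpbpb, Cts8-ps and the Psg genes stayed in. At a 1.5-fold limit 11 members were higher, 8 of them Cts or Tpbp and 3 Psg, and at a 3-fold limit there were 0 in all these groups.

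As a mean in place of a median, the level was -1.02 for Prl in MD1, -1.15 and -0.34 for Cts and Tpbp in WT and MD1, and -0.091 and 0.29 for Psg. Without overlapping genes the median level was -0.82 for Prl in WT, -0.67 for Psg in WT and, with its sign turned, -0.087 for Psg in MD1. The cause of these shifts was not tested. Of the 48 single genes, 3 changed sign with the level-matched difference (Prl3b1, Prl8a8 and Prl7c1, none of them past 2-fold) and 0 with a pseudocount of 1.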
